A study of Mus musculus with 24 samples.

Results

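The genes described here encode matrix-degrading proteases of the liver and the proteins that inhibit them. They are Mmp2, Mmp8, Mmp9, Mmp13, Mmp14, Mmp19, Timp1, Timp2, Timp3 and Adamts1, 10 of the 18820 named genes on the array. They are a named list of matrix proteases without the macrophage elastase Mmp12, and of Timp inhibitors, drawn up with earlier results of these data known. The list is not the whole of these families: 13 other measured Mmp genes besides Mmp12, 17 other Adamts genes and Timp4 are outside it and are described after it. Each of the 10 had a single probe set, so no choice between probe sets was needed. Matrix metalloproteinases are zinc enzymes that are made as inactive precursors and, once activated, cleave collagens and other proteins outside the cell. Tissue inhibitors of metalloproteinases, the Timps, bind the active enzymes and block them, and in injured liver both kinds of gene are known from stellate cells and macrophages. Adamts1 belongs to a related family of secreted proteases that cut large proteoglycans of the matrix.

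Livers came from 24 male C57BL/6 mice on chow, aged 9 to 12 weeks, with 1 mouse per array and 6 mice in each of 4 groups. FXRKO mice, which lack the bile acid receptor FXR throughout the body (FXR-/-), received obeticholic acid (OCA, also named INT747, a semi-synthetic agonist of that receptor) at 10 mg/kg/day, or vehicle. WT mice received the same dose of OCA or vehicle. All 4 groups, the vehicle groups included, were gavaged daily for 7 days with 1% methyl cellulose, with or without OCA. The design asks what the loss of the receptor, its activation for 7 days, and the 2 together do to liver transcripts. Values are log2 expression after RMA (robust multi-array average, a summary and normalization of the probes of a probe set), so a difference of 1 is a 2-fold change. Groups are compared only within a gene, because probes of different genes respond differently, and where the share of genes with a lower mean is given, it is a rough guide to a low signal and no measure of abundance.

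Array medians lay between 4.57 and 4.65, and pairs of arrays correlated at 0.9746 to 0.9966 over all genes. WT vehicle replicate 6 stood apart, with 532 genes more than 2-fold from the mean of its own group, against 2 to 90 genes in any other array. The array names carry a code number, 5, 7 or 9, which nothing in the labels explains. Number 9 held all FXRKO OCA arrays and FXRKO vehicle replicates 1 and 2. Number 7 held FXRKO vehicle replicates 3 to 6 and WT vehicle replicates 1 to 4, and number 5 held all WT OCA arrays and WT vehicle replicates 5 and 6. Nr1h4, which encodes FXR, read 9.8 to 10.13 in FXRKO livers and 9.85 to 10.3 in WT livers, and since where its probes lie is not known here, this checks nothing about the deletion. The receptor's target Nr0b2 read 3.4 to 4.82 in FXRKO livers and 5.87 to 8.62 in WT livers, so every array was on the side its label gives. Hepatocyte markers averaged 12.31 to 12.82 per array in all 24 livers.

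Promoters from RefSeq on build GRCm38.p6, covering 250 bases before and 50 after each gene's start, were found for 7 of the 10 genes (not for Mmp2, Mmp9 and Mmp19). Those of Mmp13, Timp1 and Timp2 are shown, 5′ to 3′, because these are the genes with a promoter in that table that differed more than 2-fold between genotypes under both treatments. Capitals mark motif matches, and the windows are chr9:7272264-7272563 on the plus strand for Mmp13, chrX:20869916-20870215 on the plus strand for Timp1 and chr11:118355362-118355661 on the minus strand for Timp2.
Mmp13: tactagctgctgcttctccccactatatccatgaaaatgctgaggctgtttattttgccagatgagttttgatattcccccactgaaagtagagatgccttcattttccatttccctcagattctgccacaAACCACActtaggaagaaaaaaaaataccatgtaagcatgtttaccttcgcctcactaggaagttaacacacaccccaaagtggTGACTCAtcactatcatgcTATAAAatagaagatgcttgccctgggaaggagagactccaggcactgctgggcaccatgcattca
Timp1: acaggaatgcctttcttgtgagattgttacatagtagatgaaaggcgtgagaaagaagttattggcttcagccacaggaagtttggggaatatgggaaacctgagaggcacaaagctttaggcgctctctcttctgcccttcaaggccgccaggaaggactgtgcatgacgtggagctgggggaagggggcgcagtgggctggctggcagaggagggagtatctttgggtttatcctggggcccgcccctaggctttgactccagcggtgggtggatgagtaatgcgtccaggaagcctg
Timp2: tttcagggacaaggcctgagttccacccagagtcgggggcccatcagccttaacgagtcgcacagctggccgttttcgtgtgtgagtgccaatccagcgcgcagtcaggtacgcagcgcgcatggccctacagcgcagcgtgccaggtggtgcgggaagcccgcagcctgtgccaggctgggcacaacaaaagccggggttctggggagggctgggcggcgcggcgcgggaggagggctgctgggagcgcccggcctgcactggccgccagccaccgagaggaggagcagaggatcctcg
Motifs were searched on both strands, with N for any base. Positions count from the first base of the gene as 0. TGANTCA, the site of AP-1 (Fos and Jun dimers), was found in 7.81% of 32851 promoters of the same length, and among the 7 genes in Mmp13 alone, at -35 to -29 from the start. AACCACA, a site of Runx factors, was found in 5.27% of promoters and again in Mmp13 alone, at -119 to -113. TATAAA was found in 13.6% of promoters and in Mmp13, Mmp8 and Adamts1. In Mmp13 it lies at -16 to -11, apart from the AP-1 match, and in Adamts1 at -32 to -27. The Mmp8 match is on the opposite strand, at -3 to 2, across the start. The FXR element known as IR-1, which is AGGTCA followed after 1 base by its reverse complement TGACCT, was found in 0.00913% of promoters and in none of the 7. The Timp1 and Timp2 windows held none of these motifs as written. Variants were not searched, and the Timp1 window holds TGAGTAA, which differs from TGANTCA at 1 base. A match is a description of the sequence and does not show a bound site.

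Livers of FXRKO mice had higher transcript levels of most of these proteases and of all 3 inhibitors than WT livers. Under vehicle 7 of the 10 genes were higher in FXRKO livers and 0 lower, where a call means a limma p under 0.05 after Benjamini-Hochberg adjustment over 18820 genes. Of all genes 27.5% were called in that comparison (15.4% higher, 12.1% lower). Under OCA 8 of the 10 were higher and 0 lower, against 30.7% of all genes called (17.4% higher, 13.3% lower). The 7 genes called under vehicle were also called under OCA, and these 2 comparisons share no arrays. The median difference of the 10 genes was 0.72 log2 under vehicle and 0.82 under OCA, against -0.03 and -0.02 over all genes. Groups did not overlap for 5 of the 10 under vehicle (15.1% of all genes, 9.4% with FXRKO livers higher) and for 7 of the 10 under OCA (18.4%, and 10.9% with FXRKO livers higher). In each of these genes the FXRKO livers were the higher ones. In whole liver a higher level can come from more cells of a type or from more RNA per cell, which cannot be told apart.

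**Figure D1:**
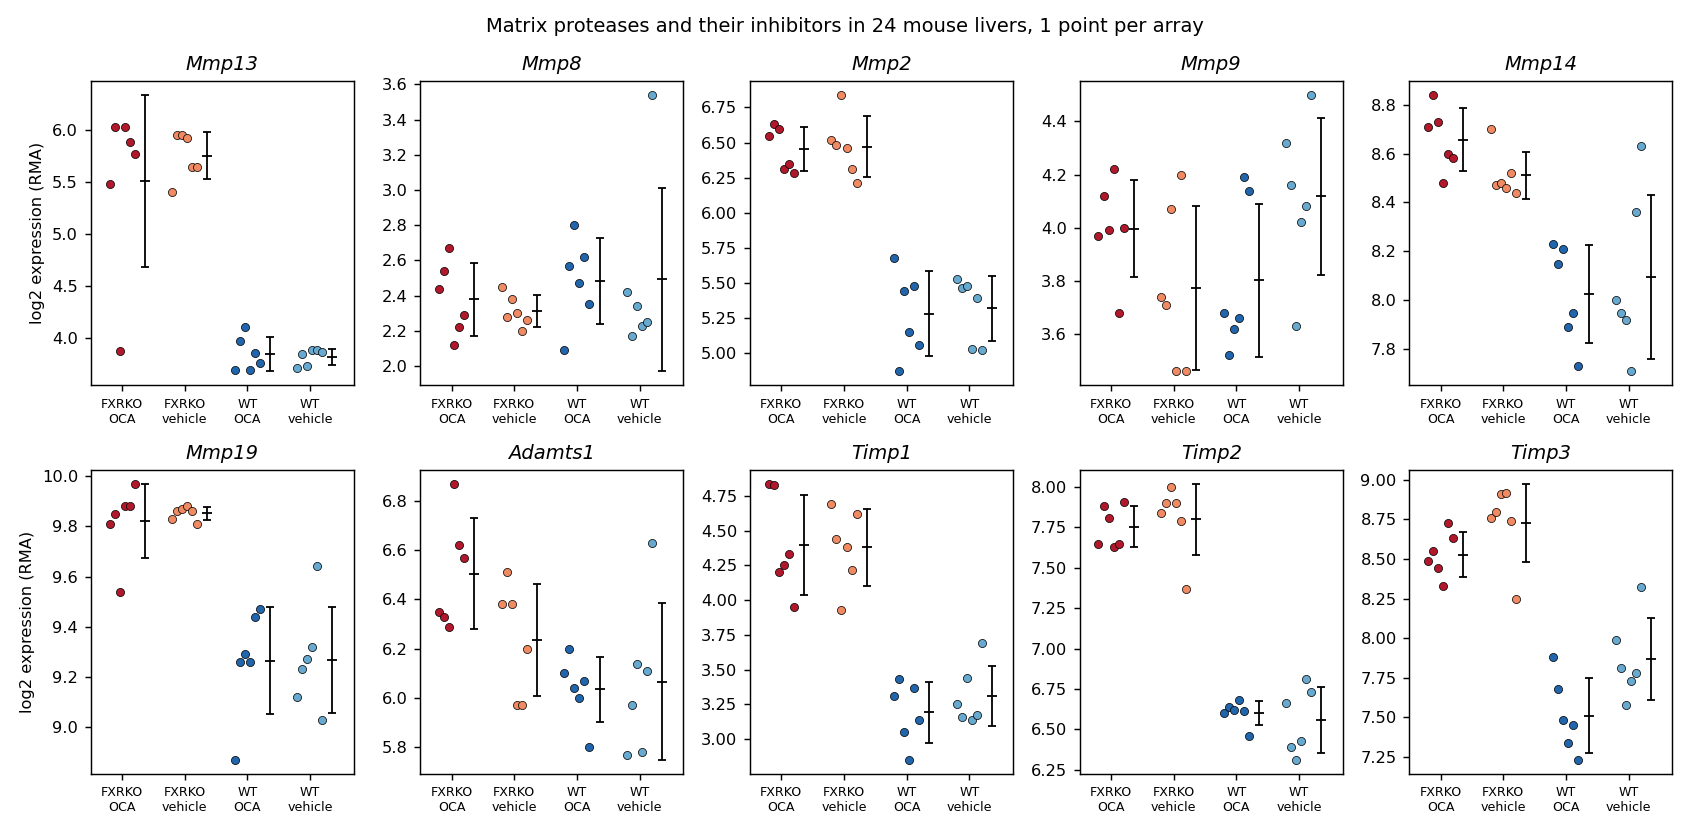
Log2 expression (y axis, RMA) of the 10 genes in each of the 24 livers, 1 point per array, with the mean and SD of each group of 6 to the right of its points and a y axis of its own for each gene. FXRKO livers lie above all WT livers for Mmp2, Timp1 and Timp2, and the single low FXRKO OCA point for Mmp13, at 3.87, is replicate 3.

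For 3 genes, Mmp2, Timp1 and Timp2, all 12 FXRKO livers lay above all 12 WT livers, a pattern shown by 5.96% of all genes. For Mmp13, Mmp19 and Timp3, 11 of the 12 FXRKO livers lay above every WT liver, for Mmp14 4 did, and for Adamts1 1 did. In group means both FXRKO groups stood above both WT groups for 8 of the 10 genes, all but Mmp8 and Mmp9. For those 8 genes no difference between the OCA and vehicle groups of a genotype, the upper and the lower pair in that order, passed the threshold, and the step between the pairs is the genotype difference given gene by gene below. For Mmp8 and Mmp9 no 2 of the groups compared passed it, and the order of means ran from WT vehicle (highest) to FXRKO vehicle (lowest) for both.

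The collagenases Mmp13 and Mmp8, which cut the triple helix of fibrillar collagen, behaved differently. Mmp13, the main interstitial collagenase of rodents, whose promoter is shown above with an AP-1 match, read 5.41 to 5.95 in FXRKO vehicle livers (median 5.79) and 3.71 to 3.88 in WT vehicle livers (median 3.85). The groups did not overlap. The difference was 1.94 ± 0.23 log2 (SE, n = 6 each), or 3.84-fold (limma adjusted p = 4.09e-07), the largest among the 10 genes. Whether the Mmp13 signal in WT livers is above background is not known. With OCA, Mmp13 read 3.87 to 6.03 in FXRKO livers (median 5.83) and 3.69 to 4.1 in WT livers (median 3.8). Here the groups overlapped through FXRKO OCA replicate 3 alone, whose 3.87 lay among the WT values while the other 5 FXRKO OCA livers read 5.48 to 6.03. The difference was 1.67 ± 0.23 (3.18-fold, limma adjusted p = 3.29e-06), and 2 ± 0.11 without that array (limma adjusted p = 5.08e-13). In the same array Nr0b2 stood at 3.92, within the FXRKO range. Mmp19 was also lowest there, at 9.54 against 9.81 to 9.97 in the other FXRKO OCA livers. Mmp12, picked after its values were seen, was lowest too, at 7.75 against 8.42 to 8.84, above the 3.86 to 4.51 of WT OCA livers. Mmp2, at 6.6, and Timp2, at 7.81, were not the lowest of their group. The Kupffer cell list of this array stood at 9.05, the highest of the 24 arrays. The resident macrophage marker Timd4, picked after its values were seen, read 8.25 against 6.47 to 6.7 in the other FXRKO OCA livers. Clec4f of the same list, picked likewise, read 10.13 against 9.82 to 10.04, so the markers did not rise alike. Whether the low Mmp13 value and the list level are linked was not tested.

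Mmp8, the neutrophil collagenase, read 2.2 to 2.45 in FXRKO vehicle livers (median 2.29) and 2.17 to 3.54 in WT vehicle livers (median 2.29). The groups overlapped, and the difference of -0.18 ± 0.17 did not pass (limma adjusted p = 0.461). OCA-treated livers read 2.12 to 2.67 in FXRKO mice (median 2.36) and 2.09 to 2.8 in WT mice (median 2.52), again with overlap and with no call (-0.10 ± 0.17, limma adjusted p = 0.695). The probe set had a mean of 2.42 over all arrays, and 6.9% of genes had a lower mean. No detection call shows whether this signal is above background. The value of 3.54 was WT vehicle replicate 6. In that array the 10 neutrophil markers averaged 4.12, against 3.16 to 3.31 in the other WT vehicle livers, and the marker S100a8, picked after its values were seen, stood at 5.23 against 2.93 to 3.09. Without that array the Mmp8 difference was 0.03 (limma adjusted p = 0.87).

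Among the gelatinases, which digest denatured collagen and basement membrane collagen, Mmp2 was higher in FXRKO livers and Mmp9 was not called. Mmp2, in liver known mainly from stellate cells, read 6.21 to 6.84 in FXRKO vehicle livers (median 6.47) and 5.02 to 5.53 in WT vehicle livers (median 5.43). With OCA it read 6.28 to 6.63 in FXRKO livers (median 6.45) and 4.87 to 5.68 in WT livers (median 5.29). Neither pair of groups overlapped. The difference was 1.15 ± 0.13 under vehicle (2.22-fold, limma adjusted p = 1.18e-07) and 1.17 ± 0.13 under OCA (2.26-fold, limma adjusted p = 7.29e-08).

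Mmp9, in liver known mainly from neutrophils and macrophages, read 3.46 to 4.2 in FXRKO vehicle livers (median 3.72) and 3.63 to 4.5 in WT vehicle livers (median 4.12). The groups overlapped and the difference of -0.35 ± 0.15 did not pass (limma adjusted p = 0.0847). It passed without WT vehicle replicate 3 (-0.44, limma adjusted p = 0.0233) and without FXRKO vehicle replicate 5 (-0.43, limma adjusted p = 0.0319). With OCA the sign was the other way, with 3.68 to 4.22 in FXRKO livers (median 4) against 3.52 to 4.19 in WT livers (median 3.67), and the difference of 0.20 ± 0.15 did not pass either (limma adjusted p = 0.345). Of all genes 35.9% had a lower mean than Mmp9, and whether its signal is above background is not known either.

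Mmp14, the membrane-anchored protease that activates the Mmp2 precursor on the cell surface with Timp2 as a bridge, read 8.44 to 8.7 in FXRKO vehicle livers (median 8.48) and 7.71 to 8.63 in WT vehicle livers (median 7.97). The overlap came from WT vehicle replicate 6 at 8.63, and replicate 5 read 8.36 while the other 4 read 7.71 to 8.0. The difference was 0.42 ± 0.12 (1.34-fold, limma adjusted p = 0.00816), and 0.52 ± 0.10 without replicate 6. Under OCA Mmp14 read 8.48 to 8.84 in FXRKO livers (median 8.65) and 7.73 to 8.23 in WT livers (median 8.05), with no overlap and a difference of 0.63 ± 0.12 (1.54-fold, limma adjusted p = 0.000152). Replicates 5 and 6 are the WT vehicle arrays with code number 5, and within number 7 alone the vehicle difference was 0.58 ± 0.08 (limma adjusted p = 0.000363).

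Mmp19, a secreted protease that cuts basement membrane proteins, varied least among FXRKO vehicle livers, which read 9.81 to 9.88 (median 9.86), against 9.03 to 9.64 in WT vehicle livers (median 9.25). With OCA it read 9.54 to 9.97 in FXRKO livers (median 9.87) and 8.87 to 9.47 in WT livers (median 9.27). No FXRKO liver fell within the range of the WT livers given the same treatment. The difference was 0.58 ± 0.09 under vehicle (1.5-fold, limma adjusted p = 3.53e-05) and 0.56 ± 0.09 under OCA (1.47-fold, limma adjusted p = 4.89e-05).

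Adamts1 was called under OCA alone. Under vehicle it read 5.97 to 6.51 in FXRKO livers (median 6.29) and 5.77 to 6.63 in WT livers (median 6.04), with overlap and a difference of 0.17 ± 0.13 (limma adjusted p = 0.354). Under OCA it read 6.29 to 6.87 in FXRKO livers (median 6.46) and 5.8 to 6.2 in WT livers (median 6.05), without overlap, and the difference was 0.47 ± 0.13 (1.38-fold, limma adjusted p = 0.00595). The call was lost with array medians as the scaling (0.28, limma adjusted p = 0.0742), with the code number as a block (0.61, limma adjusted p = 0.128; without WT vehicle replicate 6 as well 0.35, adjusted p = 0.482), and without the arrays whose names end in _2 (0.48, limma adjusted p = 0.0562). The 2 genotype differences were not shown to differ from each other, since the test of their difference gave 0.30 ± 0.18 (limma adjusted p = 0.851).

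All 3 inhibitor genes of the set were higher in FXRKO livers. Timp1, a soluble inhibitor that rises with fibrosis in rodents and people, read 3.93 to 4.69 in FXRKO vehicle livers (median 4.41) and 3.14 to 3.69 in WT vehicle livers (median 3.21). With OCA it read 3.95 to 4.84 in FXRKO livers (median 4.29) and 2.85 to 3.43 in WT livers (median 3.23). Neither pair of groups overlapped, and 34.4% of genes had a lower mean than Timp1. Whether the Timp1 signal, above all in WT livers, exceeds background is not known. The difference was 1.07 ± 0.15 under vehicle (2.1-fold, limma adjusted p = 3.5e-06) and 1.21 ± 0.15 under OCA (2.31-fold, limma adjusted p = 5.23e-07).

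Timp2, which both inhibits Mmp2 and takes part in its activation by Mmp14, gave the smallest adjusted p of the 10 genes under both treatments. It read 7.37 to 8.0 in FXRKO vehicle livers (median 7.87) and 6.31 to 6.81 in WT vehicle livers (median 6.54). OCA-treated FXRKO livers read 7.63 to 7.91 (median 7.73) and OCA-treated WT livers 6.46 to 6.68 (median 6.61). Every FXRKO liver was above every WT liver. The difference was 1.25 ± 0.09 under vehicle (2.37-fold, limma adjusted p = 1.65e-10) and 1.15 ± 0.09 under OCA (2.23-fold, limma adjusted p = 6.33e-10).

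Timp3, the inhibitor that binds to the matrix and that also blocks Adamts proteases and the sheddase Adam17, read 8.25 to 8.92 in FXRKO vehicle livers (median 8.78) and 7.58 to 8.32 in WT vehicle livers (median 7.8). The overlap was between FXRKO vehicle replicate 6 at 8.25 and WT vehicle replicate 6 at 8.32. With OCA the FXRKO livers read 8.33 to 8.73 (median 8.52) and the WT livers 7.23 to 7.88 (median 7.47), without overlap. The difference was 0.86 ± 0.12 under vehicle (1.82-fold, limma adjusted p = 5.28e-06) and 1.02 ± 0.12 under OCA (2.03-fold, limma adjusted p = 3.98e-07). Timp3 lies on chromosome 10, as do Mmp19 of the set and the deleted gene Nr1h4. Between Timp3 and Nr1h4 lie 21 measured genes. Of those 21, 6 were called under vehicle (28.6%) and 7 under OCA (33.3%), against 30.0% and 33.2% of the 874 measured genes of the chromosome. Of the 50 measured genes nearest to Nr1h4, 25 on each side, 18 were called under vehicle (36.0%) and 16 under OCA (32.0%). The measured genes next to Timp3, Syn3 and Gm5174, stood at 0.13 and -0.23 under vehicle and were not called. Hsp90b1, beyond Gm5174, was called lower, at -0.21 (limma adjusted p = 0.0341). Bpifc and Fbxo7 beyond Syn3, and Ttc41 beyond Hsp90b1, were not called. Whether position has a part in the Timp3 difference was not tested, and the neighbours of Mmp19 were not examined.

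**Figure D2:**
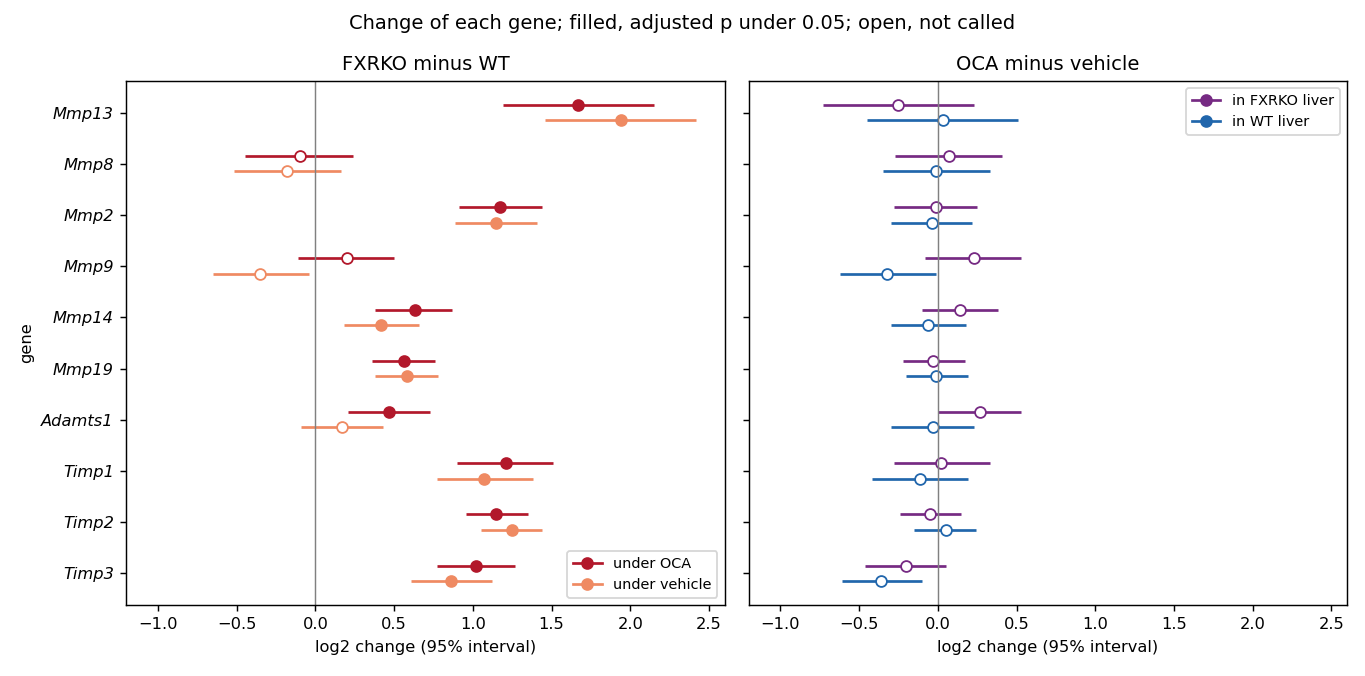
Log2 difference (x axis) with its 95% interval for each gene, between genotypes on the left and between treatments on the right, with filled points for called differences. Genotype differences reach 1.94 for Mmp13 under vehicle, whereas all 20 treatment differences are open and their intervals stay between -0.73 and 0.53.

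The genotype differences held within array code number 7, which has 4 FXRKO and 4 WT vehicle livers. There the same number, 7 of the 10 genes, was called, with Mmp13 at 2.01, Timp2 at 1.32, Mmp2 at 1.08, Timp1 at 1.04, Timp3 at 0.93, Mmp19 at 0.62 and Mmp14 at 0.58. With the code number as a block over all arrays, 7 genes were called under vehicle. Under OCA no number holds both genotypes, so number and genotype cannot be told apart within those groups. A block fit, which rests on the vehicle arrays to estimate the numbers, called 6 of the 10 under OCA, with Mmp19 at 0.67 (limma adjusted p = 0.0581) and Adamts1 at 0.61 (limma adjusted p = 0.128) no longer called. With the block and without WT vehicle replicate 6 it called 4, namely Mmp2, Mmp14, Mmp19 and Timp2. Centring each array on the median of the named genes moved the median difference of all genes to -0.20 under vehicle and -0.21 under OCA, and the higher share of the calls to 17.5% and 16.9%, against 56.1% and 56.7% without it. Under that scaling Mmp14 stood at 0.25 under vehicle (limma adjusted p = 0.0732) and Adamts1 at 0.28 under OCA (limma adjusted p = 0.0742), no longer called, while Mmp9 under vehicle was called lower, at -0.51 (limma adjusted p = 0.00585). Every gene called in the original fit kept its sign under that scaling and the other 2 tried.

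No difference between OCA and vehicle passed the threshold for any of the 10 genes, in either genotype. In WT livers 0 of the 10 were called, against 0.0691% of all genes. At an unadjusted p under 0.05 there were 2 of the 10, Timp3 and Mmp9, against 9.47% of all genes. For Timp3 the OCA-treated WT livers read 7.23 to 7.88 and the vehicle-treated WT livers 7.58 to 8.32, with overlap and a difference of -0.36 ± 0.12 (limma adjusted p = 0.309). For Mmp9 the difference in WT livers was -0.32 ± 0.15 (limma adjusted p = 0.506), with 4 of the 6 OCA-treated livers at 3.52 to 3.68 and the other 2 at 4.14 and 4.19, inside the vehicle range of 3.63 to 4.5. The other 8 differences lay between -0.11 and 0.05. Bounds of the 95% intervals for the 10 genes in WT livers ran from -0.62 to 0.51, so a change of more than 1 log2 unit lay outside each of these intervals. Of 6 genes listed to check the receptor and its targets, 3 were called for OCA in WT livers and 0 in FXRKO livers. In WT livers Nr0b2 (1.41 ± 0.25, limma adjusted p = 0.0244) and Slc51b (1.02 ± 0.13, 0.000699) were higher. Cyp8b1 (-1.28 ± 0.14, limma adjusted p = 3.74e-05) was lower.

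In FXRKO livers 0 of the 10 were called for OCA, against 0.0159% of all genes, and 1 had an unadjusted p under 0.05, against 5.14% of all genes. That gene was Adamts1, with 6.29 to 6.87 in OCA-treated and 5.97 to 6.51 in vehicle-treated FXRKO livers, at 0.27 ± 0.13 (limma adjusted p = 0.96). Mmp13 stood at -0.25 ± 0.23, and at 0.08 ± 0.11 without FXRKO OCA replicate 3. Timp3 stood at -0.20 ± 0.12 (limma adjusted p = 0.985). Interval bounds ran from -0.73 to 0.53. For no gene of the 10 did the OCA and vehicle groups separate, in WT livers (0.457% of all genes) or in FXRKO livers (0.654%).

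When the code number was added as a block, 1 of the 10 genes was called for OCA in WT livers. It was Mmp14, at -0.46 ± 0.12 (limma adjusted p = 0.036), in a fit that called 667 genes, or 3.54% of all. That value sets the OCA livers against WT vehicle replicates 5 and 6 alone, and within number 5 alone it was -0.46 ± 0.15 with an adjusted p of 0.316 by limma. Without replicate 6 the block value was -0.33 (limma adjusted p = 0.418), and with no block and without replicate 6 it was 0.04.

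Whether the OCA effect depended on genotype was tested by the difference of the OCA effects, FXRKO minus WT. None of the 10 genes passed, and 0 of 18820 genes did. At an unadjusted p under 0.05 there was 1 of the 10, against 6.06% of all genes. That gene was Mmp9, at 0.54 ± 0.21 (limma adjusted p = 0.72), with group means ± SD of 4 ± 0.18 in FXRKO OCA, 3.77 ± 0.31 in FXRKO vehicle, 3.8 ± 0.29 in WT OCA and 4.12 ± 0.3 in WT vehicle livers. The other 9 lay between -0.27 (Mmp13) and 0.30 (Adamts1).

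Among the other Mmp and Adamts genes calls between genotypes were about as frequent as over all genes, of which 27.5% were called under vehicle and 30.7% under OCA, except for the Adamts genes under vehicle. Of 14 further measured Mmp genes 4 were called under vehicle and 4 under OCA, each time higher in FXRKO livers, with a median of 0.09 under vehicle. Mmp12, the macrophage elastase, stood at 8.36 to 9.05 in FXRKO vehicle livers and 3.44 to 4.38 in WT vehicle livers, a difference of 4.58 ± 0.17 (limma adjusted p = 2.14e-16), larger than for any of the 10 genes. Mmp23 (1.15 ± 0.12), the matrilysin Mmp7 (0.51 ± 0.16) and the stromelysin Mmp11 (0.39 ± 0.10) were the others under vehicle. Among 17 other Adamts genes 6 were higher and 2 lower under vehicle, with a median of 0.03, and 4 were higher and 1 lower under OCA, where 5 of 17 is near the share of all genes. Adamts5, an aggrecan-cutting protease, stood at 5.79 to 6.3 in FXRKO vehicle livers and 4.22 to 4.97 in WT vehicle livers (1.41 ± 0.12, limma adjusted p = 1.51e-09). Adamts10 (0.63 ± 0.09) and Adamts9 (0.56 ± 0.12) were higher and Adamts6 (-0.48 ± 0.11) lower.

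Of 16 further inhibitors, activators and clearance receptors of these proteases 6 were higher and 6 lower in FXRKO livers, under each treatment, a larger share than the 27.5% and 30.7% of all genes. Reck, a membrane-anchored inhibitor of metalloproteinases, went the opposite way to the Timp genes of the set. It read 4.67 to 5.15 in FXRKO vehicle livers (median 4.95) and 5.67 to 6.27 in WT vehicle livers (median 5.89), a difference of -1.01 ± 0.14 (limma adjusted p = 2.69e-06), and -1.13 ± 0.14 under OCA. Mug1, a protease-trapping plasma protein of the mouse, was lower too (-0.75 ± 0.07 under vehicle). The sheddase Adam10 (0.56 ± 0.06) and the plasminogen activator Plat (0.77 ± 0.12) were higher. Timp4, the remaining Timp gene, singled out after its values were seen, was lower, at 3.3 to 3.49 in FXRKO vehicle livers and 3.5 to 4.0 in WT vehicle livers (-0.31 ± 0.09, limma adjusted p = 0.00748), near the lower end of the scale. Of 13 collagen chain genes, the substrates of these proteases, 10 were higher and 1 lower under each treatment, with a median of 0.57 under both. Under vehicle Col6a3 stood at 1.61 ± 0.11, Col1a1 at 1.54 ± 0.15, Col3a1 at 1.54 ± 0.15 and Col1a2 at 1.25 ± 0.12.

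**Figure D3:**
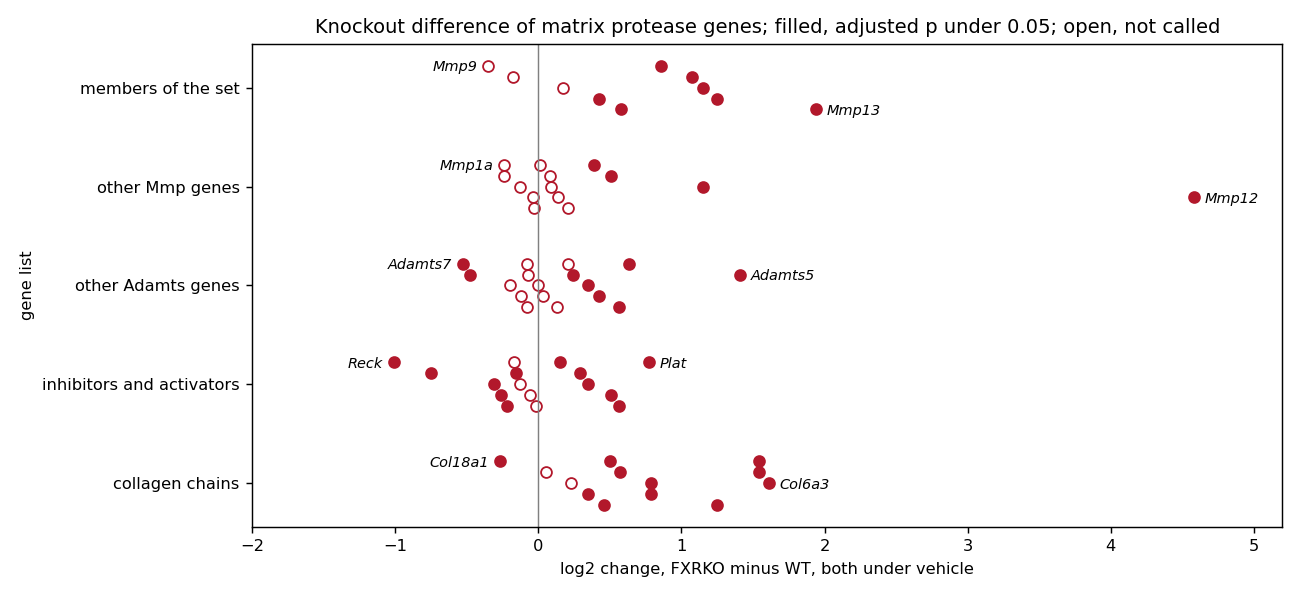
Log2 difference between FXRKO and WT vehicle livers (x axis) for each measured gene of 5 lists (rows), with filled points for called differences and the lowest and highest gene of each list named. The 10 genes of the set run from -0.35 (Mmp9) to 1.94 (Mmp13), and the inhibitors and activators reach -1.01 (Reck).

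Markers of some liver cell types moved with genotype beside these genes, and their counts stand against 27.5% of all genes called under vehicle (15.4% higher, 12.1% lower). Under vehicle 7 of 11 stellate cell markers were higher in FXRKO livers and 1 lower, with a list mean per array of 7.2 to 7.51 in FXRKO vehicle and 6.89 to 7.2 in WT vehicle livers. Cygb (1.09 ± 0.11) and Lrat (1.10 ± 0.13) were higher and Ecm1 (-0.75 ± 0.09) lower. Myofibroblast markers were mixed, with 4 higher and 2 lower of 9 and a median difference of 0.12. They averaged 5.19 to 5.67 in FXRKO vehicle and 4.81 to 5.19 in WT vehicle livers. Tagln was higher, at 1.34 ± 0.15. Acta2, Myl9 and Loxl2, picked after their values were seen, had higher means in FXRKO vehicle than in WT vehicle livers (7.64 against 6.61, 6.69 against 5.87 and 5.93 against 5.34). The Acta2 groups overlapped, at 6.8 to 8.67 and 5.93 to 7.15. Cnn1 and Postn, picked after their values were seen, had lower means in FXRKO vehicle than in WT vehicle livers (3.19 against 3.54 and 5.9 against 6.22). Macrophage markers were higher as well. Of 11 monocyte and macrophage markers 9 were higher and 0 lower, and the list averaged 6.83 to 7.11 in FXRKO vehicle and 5.58 to 6.12 in WT vehicle livers, with the smallest p for Gpnmb (3.42 ± 0.11), Trem2 (1.42 ± 0.12) and Itgax (1.61 ± 0.15).

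Resident Kupffer cell markers were mixed, with 4 higher and 2 lower of 9, Vsig4 at 1.01 ± 0.19 and Cd163 at -1.38 ± 0.19. Their list averaged 8.14 to 8.46 in FXRKO vehicle and 7.88 to 8.7 in WT vehicle livers. None of 10 neutrophil markers was called by limma, with 1 at an unadjusted p under 0.05, and the list averaged 3.24 to 3.48 in FXRKO vehicle and 3.16 to 4.12 in WT vehicle livers. Of 9 sinusoidal endothelial markers 0 were higher and 2 lower (8.17 to 8.61 in FXRKO vehicle and 8.46 to 8.72 in WT vehicle livers). Cholangiocyte markers, with 4 of 7 higher, averaged 4.54 to 4.82 in FXRKO vehicle and 4.21 to 4.33 in WT vehicle livers, and hepatocyte markers, with 4 of 9 lower, averaged 12.38 to 12.49 in FXRKO vehicle and 12.67 to 12.82 in WT vehicle livers. Mesothelial markers had 1 higher and 1 lower of 5, and lymphocyte markers 0 higher and 1 lower of 9. The endothelial and lymphocyte counts are below the share of all genes, and 2 of 5 mesothelial markers are too few to set against it. No marker is listed at 0, because the lowest value of the table is 0.87. The part these cell types have in the differences of the proteases and inhibitors was not tested.

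**Figure D4:**
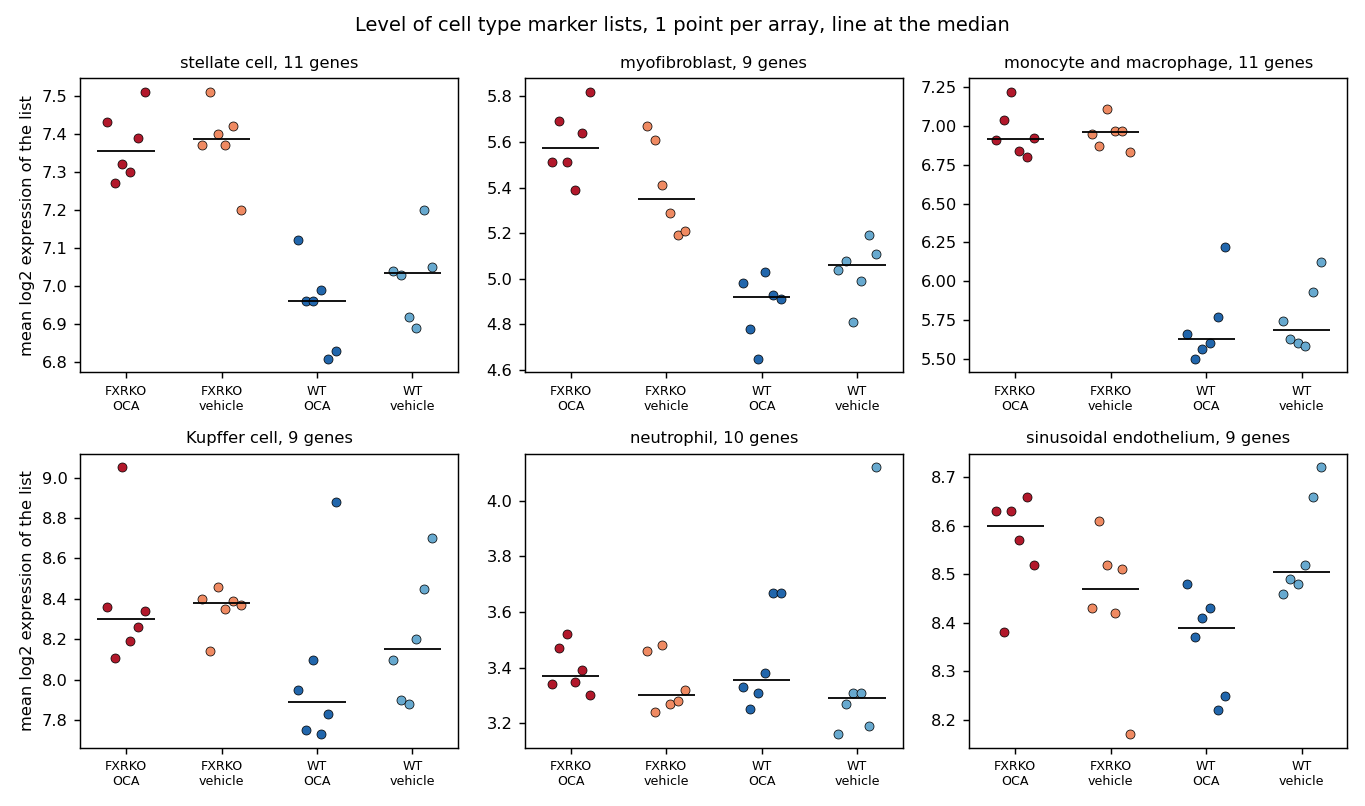
Mean log2 expression of 6 cell type marker lists (y axis) in each liver, 1 point per array, with a line at the median of each group of 6. Stellate cell and macrophage lists lie higher in FXRKO livers, and WT vehicle replicate 6 stands at 4.12 in the neutrophil list.

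Under OCA the stellate list had 7 higher and 1 lower of 11, the myofibroblast list 6 higher and 0 lower of 9, and the monocyte and macrophage list 10 higher and 0 lower of 11 in FXRKO livers, against 30.7% of all genes called. Kupffer cell markers had 5 higher and 2 lower of 9, and hepatocyte markers 0 higher and 7 lower of 9. Sinusoidal endothelial markers had 3 higher and 0 lower of 9, with a median difference of 0.16 against -0.13 under vehicle. A count of 3 of 9 is near the share of all genes, so no turn of direction is read from that count. For the difference of the OCA effects 5 of the 9 had an unadjusted limma p under 0.05 (median 0.33), against 6.06% of all genes. For OCA in WT livers it was 5 of 9 (median -0.28), against 9.47%, and in FXRKO livers 2 of 9 (median 0.09), against 5.14%. None of these passed after adjustment. Cholangiocyte markers had 1 higher of 7, neutrophil markers 1 lower of 10, mesothelial markers 2 higher and 1 lower of 5, and lymphocyte markers 0 of 9. For OCA against vehicle no cell type list had a call in either genotype, and neither did the 10 genes described here. Such calls were rare over all genes too, at 0.0691% in WT and 0.0159% in FXRKO livers.

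Within groups the 10 genes did not vary as a block. After each group's mean was subtracted, the 45 pairs among them had a median Pearson r of 0.10 over the 24 arrays, given as a description since the arrays share their group, RNA handling and scaling. Of the 45 pairs 4 exceeded 0.5, and 1 did without WT vehicle replicate 6. That pair was Timp2 and Timp3, at 0.65 over 24 arrays and 0.62 over 23. Mmp8 with Mmp14 gave 0.64 over 24 arrays and 0.29 over 23, so its value rested on that array. Mmp2 correlated best with A430093F15Rik (0.76), Lmnb2 (0.72) and Fignl2 (0.70).

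The nearest genes depended on WT vehicle replicate 6 for Mmp2, Mmp8, Mmp14, Timp3 and Adamts1, whose 3 nearest genes over 24 arrays were all replaced by others over 23. Among all other named genes, Timp2 was most like Olfml3, a secreted matrix protein (r = 0.84 over 24 arrays and 0.84 over 23), followed by Mier3 (0.78) and the actin-severing protein gene Gsn (0.77). Timp3 was most like 1700025G04Rik, Abi3bp and Mxra8, each at 0.80 over 24 arrays, with Abi3bp and Mxra8 at 0.73 over 23. For Timp1 the nearest were Nrf1 (0.79 and 0.76), Nom1 (0.73) and Gm597 (0.68). Mmp9 was nearest to S100a9, a calcium-binding protein gene of neutrophils (0.71 and 0.67), Cnn2 (0.70) and Cstdc4 (0.70). Mmp8 was nearest to Nop58 (0.90 over 24 arrays and 0.64 over 23), U2af1 and Pcid2. For Mmp13 the nearest were Gm5617 (0.74), Pcf11 (0.72) and Mettl15 (0.72), for Mmp14 Eftud2, Ppp1r3c and H2-Eb1 (0.82 each over 24 arrays, 0.71 to 0.73 over 23, where Inhba at 0.85 was nearest), and for Mmp19 Olfr1062 and Agpat2 (0.83 each) and Creg1 (0.79). Adamts1 was nearest to Eif2ak3 (0.82), Gpihbp1 (0.79) and Usp53 (0.77). All these genes were picked for the highest r among all named genes, and such picking by itself raises r.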

How the data were processed

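The deposited values are log2 expression values of whole-transcript arrays, obtained by the authors with RMA per the submitters' processing notes. No source used here states the RMA version or the base of the logarithm, and base 2 was taken from the range of 0.87 to 13.6. Of 35556 probe sets, the 21218 with a single gene symbol were kept, and 1881 with several symbols and 12457 absent from the platform table were left out. Symbols were updated by gene number for 21185 probe sets with a RefSeq gene table (GRCm38.p6, used for names and gene order), and the probe set with the highest mean was kept per gene. No detection calls were used, so low levels may be background. The number of arrays limits the precision.

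A model of 4 group means over 24 arrays was fitted with limma 3.58.1 (lmFit, eBayes; 20 residual and 4.46 prior degrees of freedom) in R 4.3.3, with Benjamini-Hochberg adjustment over 18820 genes and calls at 0.05. Comparisons that share arrays are FXRKO against WT under a treatment with OCA against vehicle in a genotype. The members and gene lists were chosen with earlier results of these data known. Named were the 10 members, per comparison at most 4 called genes with the smallest p from each pathway list and 3 from each cell type list, Nr1h4, Nr0b2, the measured neighbours of Timp3, and the 3 genes of highest r with each member. Other names are marked in the text as picked after their values were seen. The fit was tested on simulated data with known changes. Alternatives were 3 scalings, a filter at a mean signal of 20, all probe sets, fits restricted to the compared groups, weighted arrays, a robust variance trend, blocks for code number, code letter or replicate number, 1 code number alone, and arrays left out. Python 3.11.15 with matplotlib 3.10.9 made the figures. Errors are SD for levels and SE for changes.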

Additional observations from a re-analysis of the deposited data

Results flagged for a closer look

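In 40 sets of 6 livers (10 genes in 4 groups), the highest or lowest liver was set apart from the other 5 by Dixon's test 7 times, and chance gives about 1 in 20 sets. Mmp13 stood at 3.87 in FXRKO OCA replicate 3, against 5.48 to 6.03 in the other 5 livers of that group. Mmp8 stood at 3.54 in WT vehicle replicate 6, against 2.17 to 2.42 in the others. Timp2 and Timp3 were both low in FXRKO vehicle replicate 6, Timp2 at 7.37 against 7.79 to 8.0 and Timp3 at 8.25 against 8.74 to 8.92. In that liver the stellate cell list was also at 7.2, the lowest of the FXRKO vehicle group, and the sinusoidal endothelial list at 8.17. Timp2 was low in WT OCA replicate 6 as well, at 6.46 against 6.60 to 6.68. Mmp19 stood at 8.87 in WT OCA replicate 1, against 9.26 to 9.47. Mmp14 stood at 8.70 in FXRKO vehicle replicate 1, against 8.44 to 8.52. The causes were not tested.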

How the results depend on the processing

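Of the 10 genes, 7 were called between genotypes under vehicle, 8 under OCA, and 0 for OCA in WT livers, OCA in FXRKO livers and the difference of the OCA effects. Leaving out arrays, among them WT vehicle replicate 6 together with a code number block, gave 7 to 8 under vehicle, 4 to 8 under OCA and 0 for the other 3. With the code number as a block the count was 1 for OCA in WT livers (Mmp14), and without WT vehicle replicate 6 in that block 4 under OCA, with Mmp13 at 1.88 (limma adjusted p = 0.0741), Timp3 at 0.94 (0.0534), Timp1 at 0.85 (0.174) and Adamts1 at 0.35 (0.482). Without the arrays ending in _2 Adamts1 under OCA was 0.48 (limma adjusted p = 0.0562), and with the code letter as a block Mmp9 under vehicle was -0.45 (limma adjusted p = 0.0446). No called value changed sign. Samples with the same replicate number deviated together no more than others (36 pairs, r -0.08 to 0.17, median 0, 2 over 0.1). A pairing of livers that leaves no shared deviation would not show in this check. With the replicate block the counts were 7 under vehicle, 8 under OCA and 0 for the other 3. The filter at a mean signal of 20 dropped Mmp8, Mmp9 and Timp1. Over all genes, centring on the named genes raised the calls to 10130 from 5174 under vehicle and to 11099 from 5780 under OCA, and lowered the share of higher calls to 17.5% from 56.1% and to 16.9% from 56.7%. Centring over all probe sets, added after the data were seen, gave 50% and 52%, and quantile normalization 46.9% and 46.6%. The code number block gave 2334 calls under OCA, 1834 without WT vehicle replicate 6 as well. For OCA in WT livers 13 genes became 667 with that block, 24 with the filter, 7 without the arrays ending in _2, 5 with array weights and within 1 number, 4 with the replicate block, and 2 with only the groups compared, the code letter as a block, or all probe sets. For OCA in FXRKO livers 3 genes became 11 with array weights, 5 over all probe sets, 1 with the filter and 0 with only the groups compared, with either code as a block, within 1 number and without the arrays ending in _2. The difference of the OCA effects had 0 calls, 34 with the number block (12 without WT vehicle replicate 6) and 2 with array weights. Leaving out single arrays gave 2 to 21 genes for OCA in WT livers (77 with the number block and without WT vehicle replicate 6), 0 to 4 for OCA in FXRKO livers and 0 to 3 for the difference. The causes were not tested. A fit within 1 code number could not be made for the genotypes under OCA or the difference of the OCA effects, nor one with only the groups compared for that difference.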
